A study of Mus musculus with 6 samples.

Results

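The genes described here are those of glycolysis and of the cellular response to low oxygen, measured in microglia sorted by their content of lipid droplets. They were chosen by symbol from a list of 32 genes: transporters of glucose and lactate, the enzymes of glycolysis, the lactate dehydrogenases, the enzymes that set fructose 2,6-bisphosphate, the subunits and oxygen sensors of the hypoxia-inducible factor (HIF), and known HIF targets. Of these, 31 were among the 14148 genes of the deposited table, Adm (adrenomedullin, a HIF target) was not listed in it, and 30 reached a value of at least 10 normalized counts in at least 3 libraries and were tested. Normalized counts are reads per gene divided by 1 size factor per library.

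Microglia, the resident macrophages of the brain, were taken from hippocampi of perfused male C57BL/6 mice aged 18 months. Each sample pools the hippocampi of 3 mice, and about 10000 live CD11b+CD45lo cells were sorted on BODIPY, a dye of neutral lipids, into a lipid droplet-low group (LD-low, BODIPYlo, 3 libraries) and a lipid droplet-high group (LD-high, BODIPYhi, 3 libraries). The labels name no treatment or engineered allele in either group, and strain, age and sex are shared. The labels do not say whether samples with the same number share a pool of mice, nor whether pools share mice. P-values therefore measure the spread between these samples, which may in part be technical.

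Glycolysis splits glucose into pyruvate in a preparatory phase, which spends ATP, and a payoff phase, which returns it. Lactate dehydrogenase interconverts pyruvate and lactate, and microglia are known to raise glycolysis when they are activated. HIF is a transcription factor made of an oxygen-labile alpha subunit and a stable partner, ARNT. In normal oxygen, prolyl hydroxylases of the EGLN family mark the alpha subunit for destruction by the VHL ubiquitin ligase. In low oxygen it persists and raises many glycolytic genes, so that transcript levels of its subunits say little of its activity.

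Of the 30 tested genes, 2 were higher in LD-high microglia and 0 were lower by limma with Benjamini-Hochberg adjustment at 0.05. The higher genes were Ldhb, the heart-type subunit of lactate dehydrogenase, at 1.31-fold, and Pfkfb3, the inducible kinase that makes the phosphofructokinase activator fructose 2,6-bisphosphate, at 1.26-fold. Over all 11624 genes tested the same rule called 1.53% higher and 1.82% lower, and 3.36% in either direction. At an unadjusted p of 0.05, 5 of the 30 genes were higher and 0 lower. The share of all genes passing this unadjusted p was not computed. Counts at this p, here and below, therefore have no background to be read beside. On the recovered reads edgeR called 2 higher and 0 lower, and DESeq2 called 3 higher and 0 lower, the third being Hif1a. Over all 11624 genes, edgeR called 377 and DESeq2 729 in either direction, beside 390 by limma. All 3 LD-high libraries lay above all 3 LD-low libraries for 8 of the 30 genes, beside 12.7% of all genes tested, and below them for 0, beside 11.7%. These 8 were Ldhb, Pfkfb3, Hif1a, Arnt, Aldoa, Pgk1, Hk3 and Pdk3. The log2 change was above 0 for 21 of the 30, beside 48.7% of all genes, and the median log2 change was 0.10 beside -0.01. With libraries scaled to equal totals 18 of the 30 lay above 0, beside 39.8% of all genes, and with quantiles 18 of the 30, beside 52.4%. In bulk libraries such as these, fewer cells of a type and less RNA per cell cannot be told apart.

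**Figure D1:**
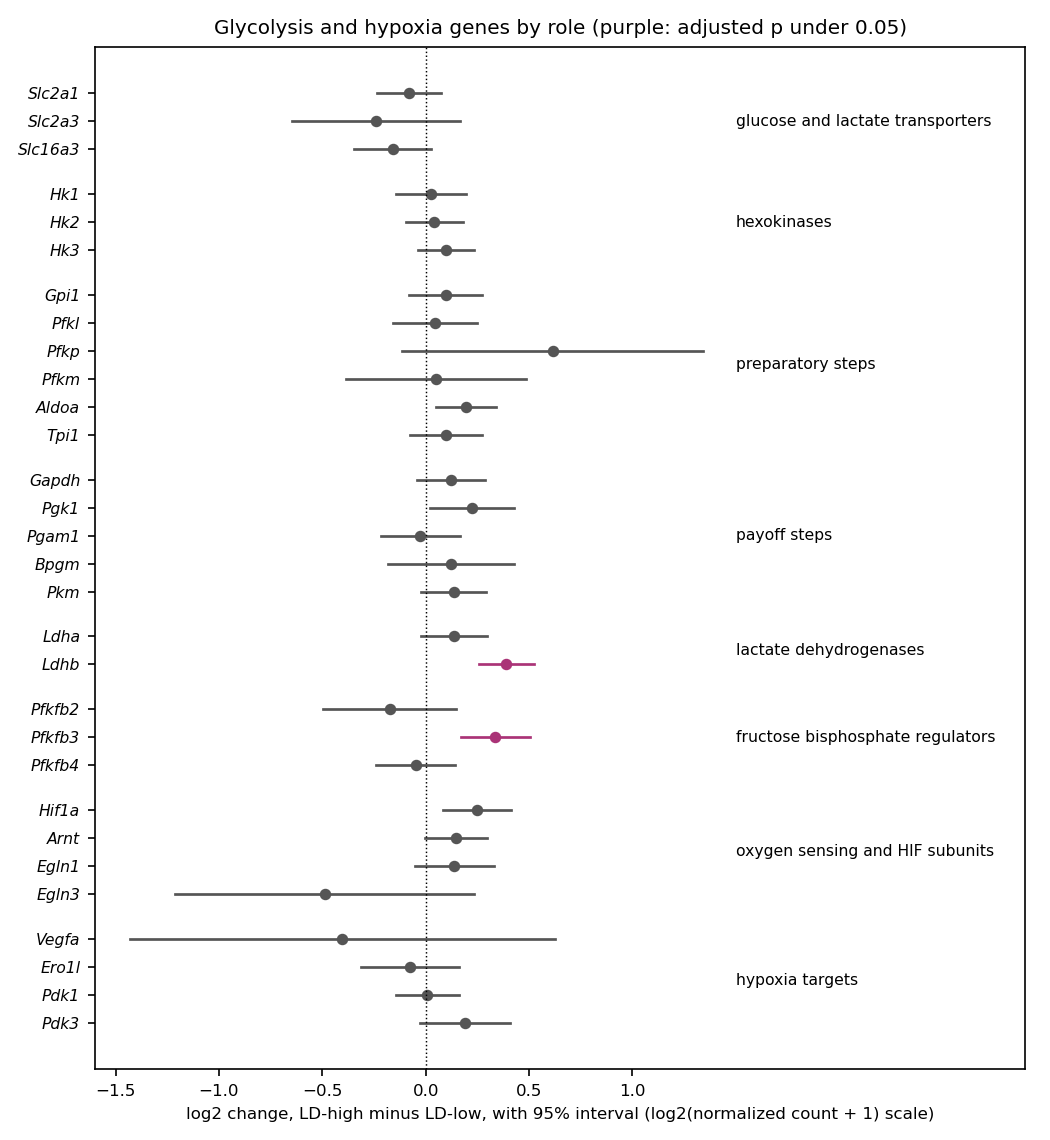
Log2 change between LD-high and LD-low for the 30 tested glycolysis and hypoxia response genes on the log2(normalized count + 1) scale, ordered by role, with points for the estimates and bars for 95% intervals of the limma fit. Ldhb at 0.39 and Pfkfb3 at 0.34 are the genes past the threshold, and the intervals of Hif1a, Aldoa and Pgk1 also lie above 0.

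Recovered reads per library ran from 15895576 to 38489448, so genes under about 100 normalized counts carried much more counting error than the rest. The 8 microglial markers summed to between 1434770 and 1677016 normalized counts in LD-low and between 1398398 and 1607822 in LD-high, with 0 of 8 called by limma and edgeR and 1 lower by DESeq2, so the labelled cell type's markers were high in every library. Markers of other cells moved with the groups. The 6 neutrophil markers in the table, of 7 listed, summed to 1220, 1583 and 4523 in LD-low and were at 0 reads in every LD-high library. The 7 choroid plexus markers summed to 941, 361 and 1776 in LD-low and to 5529, 1697 and 5448 in LD-high, and 3 of the 4 tested were called higher by limma and edgeR and 1 by DESeq2. The 6 myelin markers summed to between 4641 and 4894 in LD-low and between 5452 and 6013 in LD-high. Of the 5 tested, 0 were called by limma and edgeR, 2 were higher by DESeq2 and 3 were higher at an unadjusted p of 0.05. The 6 astrocyte markers, nearly all of it Slc1a3, summed to between 6478 and 7836 in LD-low and between 7970 and 8839 in LD-high, with 0 of 2 tested called. Gfap stayed at or below 19.5 normalized counts in every library. Gfap and Aqp4, neither of them tested, were lower in every LD-high library than in any LD-low library, against the direction of the sum. The 3 neuronal markers in the table, of 6 listed, summed to at most 29.8. Border-associated macrophage markers summed to between 254 and 557 in LD-low and between 167 and 416 in LD-high, with 0 of 7 tested called. All 7 had log2 changes below 0, and 2 were lower at an unadjusted p of 0.05. The 4 endothelial markers in the table, of 6 listed, summed to between 1089 and 1501 in LD-low and between 1301 and 1670 in LD-high. Nearly all of this sum was Pecam1. Of the 3 tested, 0 were called by limma and 1, Flt1, was lower by edgeR and DESeq2. The part of these cells in the differences below was not tested.

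The lactate dehydrogenases carried the larger of the called differences. Ldhb (ENSMUSG00000030246.5, chr6:142438769-142456477 on the minus strand of NCBIM37, the mm9 build) measured 14472, 13789 and 13654 normalized counts in LD-low replicates 1 to 3 and 18644, 18012 and 18234 in LD-high replicates 1 to 3. Every LD-high library was above every LD-low library, and the gap between the groups was wider than the range within either. The means were 13972 ± 438 and 18297 ± 321 (SD, n = 3 each), and the log2 change was 0.39 ± 0.06 (SE, 95% interval 0.26 to 0.52, limma adjusted p = 0.00566). The call held in 6 of 6 fits that left out 1 library, with adjusted p from 0.00562 to 0.0398. It was lost with a variance fit that does not follow the mean (adjusted p = 0.144), under which 15 genes were called in all. Ldha (chr7:54096845-54110997, plus strand), the muscle-type subunit and the classical HIF target of the pair, measured 6434, 6665 and 6315 in LD-low and 7515, 7524 and 6360 in LD-high. LD-high replicates 1 and 2 were above every LD-low library and replicate 3 lay among them, and the log2 change of 0.14 ± 0.07 did not pass (95% interval -0.02 to 0.30, adjusted p = 0.33).

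The ratio of Ldhb to Ldha normalized counts was 2.25, 2.07 and 2.16 in LD-low and 2.48, 2.39 and 2.87 in LD-high. The groups did not overlap, but a 2-sided exact permutation test of 3 against 3 libraries gave p = 0.1, the smallest it can give. Per kilobase of exon, Ldhb made up 80.4% ± 0.66 of the summed Ldha and Ldhb level in LD-low and 83.0% ± 1.33 in LD-high (SD, n = 3 each). Lengths of the longest coding transcripts, chosen after seeing the data, put these shares at 74.5% and 77.7%. Ldhb was thus the larger of both transcripts per length in every library. The summed markers of myelin and of astrocytes also lay apart between the groups in the direction of Ldhb. Among single genes, Mag, Cnp and Slc1a3 did so. Mog, Gfap and Aqp4, all at low counts, lay apart in the other direction, and the rest overlapped. The summed choroid plexus markers overlapped, at 1697 in LD-high replicate 2 and 1776 in LD-low replicate 3. Among them Kl and Aqp1 lay apart, higher in LD-high, and the rest overlapped. The part of any of these cells in the Ldhb difference was not tested. Each subunit has near-identical copies elsewhere in the genome, 1 other locus for Ldhb at 97.59% identity and 3 for Ldha at up to 95.25%, so reads shared with them leave these levels uncertain.

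The promoters of the genes with the strongest differences, and of Ldha beside Ldhb, are shown because HIF is known to bind ACGTG or GCGTG as the core of the hypoxia response element. Each line holds the 250 bases before a RefSeq transcription start on GRCm38.p6, read from 5′ to 3′ along the gene, and capitals mark ACGTG and GCGTG on either strand. A CACGTG reads as ACGTG on both strands and is counted as 1 place. Where RefSeq gives several starts, the window with the most matches is shown.
Ldhb, chr6:142507958-142508207, minus strand: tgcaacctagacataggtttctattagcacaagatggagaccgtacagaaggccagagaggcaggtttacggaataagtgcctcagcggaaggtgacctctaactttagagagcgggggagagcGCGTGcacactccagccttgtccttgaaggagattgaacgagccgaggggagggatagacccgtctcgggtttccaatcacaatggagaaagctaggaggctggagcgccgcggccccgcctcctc
Ldha, chr7:46845554-46845803, plus strand: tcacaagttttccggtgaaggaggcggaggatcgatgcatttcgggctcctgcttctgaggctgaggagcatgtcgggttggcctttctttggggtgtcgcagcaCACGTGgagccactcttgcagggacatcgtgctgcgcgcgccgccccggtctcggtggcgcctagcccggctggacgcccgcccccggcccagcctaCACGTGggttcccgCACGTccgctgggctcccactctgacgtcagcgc
Pfkfb3, chr2:11502091-11502340, minus strand: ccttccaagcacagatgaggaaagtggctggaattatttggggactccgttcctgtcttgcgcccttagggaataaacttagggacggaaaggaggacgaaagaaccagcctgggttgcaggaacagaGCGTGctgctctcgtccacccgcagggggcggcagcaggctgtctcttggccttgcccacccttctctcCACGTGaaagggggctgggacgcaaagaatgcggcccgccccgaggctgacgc
Hif1a, chr12:73907617-73907866, plus strand: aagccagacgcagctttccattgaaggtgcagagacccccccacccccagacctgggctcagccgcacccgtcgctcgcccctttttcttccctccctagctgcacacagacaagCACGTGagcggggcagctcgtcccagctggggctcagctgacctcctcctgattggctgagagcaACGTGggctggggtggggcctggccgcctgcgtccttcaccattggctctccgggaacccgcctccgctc
The Ldhb window held 0 places with ACGTG and 1 with GCGTG, and the Ldha window 3 with ACGTG and 0 with GCGTG. The Pfkfb3 window held 1 of each, and the Hif1a window 2 with ACGTG and 0 with GCGTG. Among the 31 listed genes with a RefSeq window, 18 had ACGTG in at least 1 window, or 58.1%, beside 25.6% of 8856 tested genes and 18.5% of 27025 genes in all. For GCGTG, searched after seeing that Ldhb lacked the other form, the shares were 64.5%, 50.8% and 30.9%. The list holds genes known as HIF targets, so its share describes how it was composed and says nothing of binding in these cells.

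**Figure D2:**
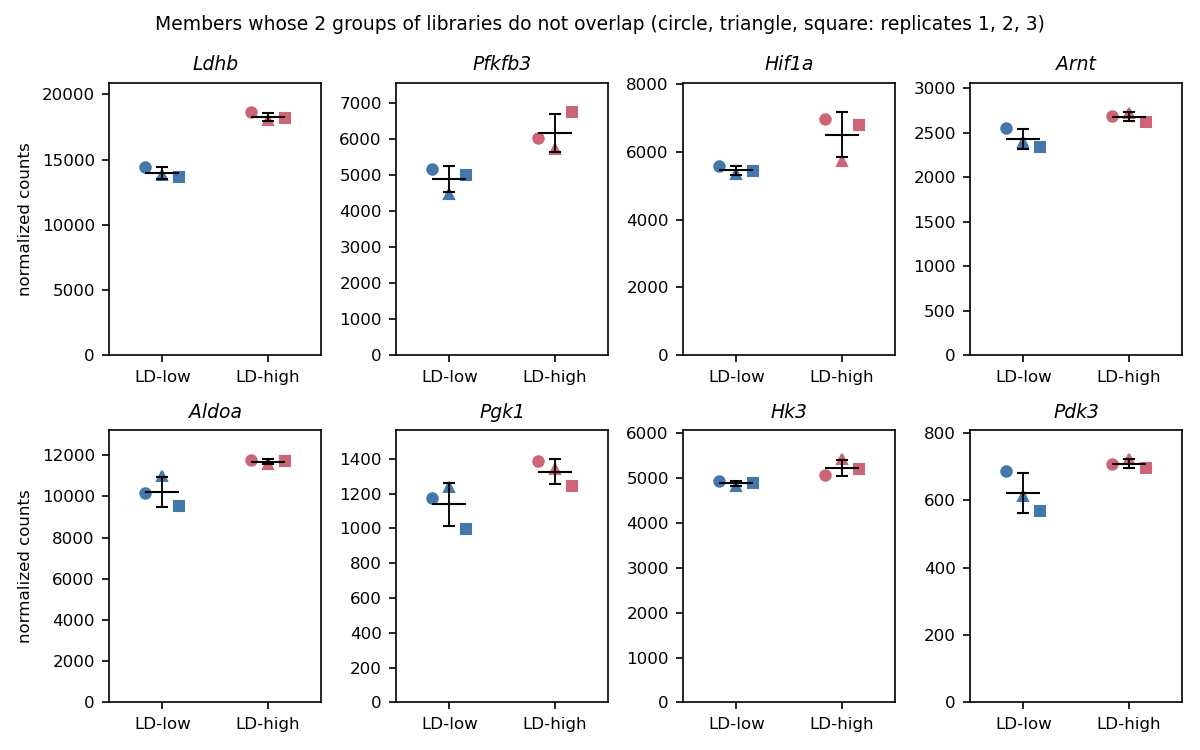
Normalized counts in each library for the tested genes of the list whose LD-low and LD-high libraries did not overlap. They are Ldhb, Pfkfb3, Hif1a, Arnt, Aldoa, Pgk1, Hk3 and Pdk3, picked for that lack of overlap. LD-low is in blue and LD-high in red, with circle, triangle and square for replicates 1, 2 and 3, and lines for the mean and SD of each group. Ldhb lies between 13654 and 14472 in LD-low and between 18012 and 18644 in LD-high.

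The 3 enzymes that make or break fructose 2,6-bisphosphate did not move together. Pfkfb3 (ENSMUSG00000026773.10, chr2:11393057-11423728, minus strand) measured 5158, 4474 and 5001 normalized counts in LD-low and 6020, 5733 and 6742 in LD-high. All 3 LD-high libraries were above all LD-low libraries, with LD-low replicate 2 the lowest and LD-high replicate 3 the highest. The means were 4878 ± 358 and 6165 ± 520 (SD, n = 3 each), and the log2 change was 0.34 ± 0.08 (SE, 95% interval 0.17 to 0.50, adjusted p = 0.0316). This call depended on single libraries. It was lost without LD-low replicate 2 (log2 change 0.28, adjusted p = 0.154), LD-low replicate 3 (0.36, 0.102), LD-high replicate 1 (0.35, 0.0512) or LD-high replicate 3 (0.27, 0.124), and kept without either of the other two. It was also lost with quantile normalization (0.28, adjusted p = 0.0712) and without the variance trend (adjusted p = 0.207), and edgeR and DESeq2 called it. Choroid plexus, myelin and astrocyte marker sums were also greater on average in LD-high, and neutrophil markers were in LD-low alone.

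Pfkfb4, a kinase and phosphatase of the same family, measured 3488, 2743 and 3074 in LD-low and 3230, 2773 and 2969 in LD-high. The groups overlapped, and the log2 change was -0.05 ± 0.09 (95% interval -0.24 to 0.14, adjusted p = 0.817). Pfkfb2, the heart form, measured 241, 251 and 267 in LD-low and 223, 256 and 197 in LD-high, which overlapped, with a log2 change of -0.17 ± 0.15 (adjusted p = 0.557). Of the summed level per kilobase of exon, Pfkfb3 made up 47.3% ± 1.28 of the 3 in LD-low and 54.0% ± 2.47 in LD-high, and Pfkfb4 made up 51.0% ± 1.47 and 44.6% ± 2.38 (SD, n = 3 each). Pfkfb4 was thus above Pfkfb3 per length in LD-low and below it in LD-high, but with the lengths of the longest coding transcripts Pfkfb3 was already the greater on average in LD-low, at 49.7% against 48.5%. The ratio of Pfkfb3 to Pfkfb4 normalized counts was 1.48, 1.63 and 1.63 in LD-low and 1.86, 2.07 and 2.27 in LD-high, apart in every library, with an exact permutation p of 0.1, the smallest that 3 against 3 allows.

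The enzymes of glycolysis proper, from hexokinase to pyruvate kinase, held 0 called genes in either direction among 14 tested of 15 listed. Their log2 changes were above 0 for 13 of 14, with a median of 0.10 and a range from -0.03 to 0.61, and 2 of them, Aldoa and Pgk1, passed an unadjusted p of 0.05. edgeR and DESeq2 called 0 of them. Scaled to equal totals or by quantiles, 11 of the 14 were above 0, beside the same 39.8% and 52.4% of all genes.

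Hexokinases trap glucose in the cell as glucose 6-phosphate. Hk3, the form of myeloid cells, measured 4948, 4828 and 4885 normalized counts in LD-low and 5067, 5421 and 5206 in LD-high. These groups did not overlap, but the log2 change was 0.10 ± 0.06 (95% interval -0.04 to 0.23, adjusted p = 0.414). Hk2, the inducible form bound to mitochondria, measured 5392, 5488 and 5477 against 5900, 5615 and 5339, and Hk1, the form known as brain hexokinase, 1677, 1649 and 1666 against 1633, 1605 and 1850. Both overlapped, with log2 changes of 0.04 ± 0.07 and 0.02 ± 0.08. Per kilobase of exon, Hk3 made up 54.5% ± 0.45 of the 3 in LD-low, Hk2 37.5% ± 0.49 and Hk1 8.01% ± 0.04 (SD, n = 3), and in LD-high the shares were 55.5% ± 1.45, 36.7% ± 1.70 and 7.77% ± 0.72. The order Hk3, Hk2, Hk1 held in every library, and with the longest coding transcripts too.

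Of the remaining preparatory steps, Aldoa, the aldolase that splits fructose 1,6-bisphosphate, came nearest to a call. It measured 10148, 10977 and 9515 normalized counts in LD-low and 11770, 11558 and 11734 in LD-high. The groups lay apart, with LD-high libraries close together and LD-low libraries spread. The log2 change was 0.20 ± 0.07 (95% interval 0.05 to 0.34, adjusted p = 0.124). For Gpi1, which turns glucose 6-phosphate into fructose 6-phosphate, the change was 0.10 ± 0.08 on the log2 scale (adjusted p = 0.549), and for Tpi1, which interconverts the triose phosphates, it was 0.10 ± 0.08 (adjusted p = 0.528). Both overlapped between the groups. Exons of Gpi1 overlap those of Gm17327 on the other strand over 741 bases.

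Phosphofructokinase is the main point of control of the pathway. Its liver-type subunit Pfkl made up 96.1% ± 0.61 of the 3 subunits per kilobase in LD-low and 95.9% ± 0.56 in LD-high. It measured 6109, 7575 and 5566 normalized counts in LD-low and 6695, 6867 and 6164 in LD-high, with a log2 change of 0.05 ± 0.09 (adjusted p = 0.839). The muscle-type Pfkm lay between 130 and 207 normalized counts in all libraries, with a log2 change of 0.05 ± 0.20. The platelet-type Pfkp measured 33.0, 37.9 and 38.1 in LD-low and 34.3, 72.8 and 70.1 in LD-high. LD-high replicate 1 lay within the LD-low range and the other two were well above it, so the fitted change of 0.61 ± 0.34, the largest in size of the 30 genes, had an interval from -0.11 to 1.34 (adjusted p = 0.337). Exons of Pfkp overlap those of Pitrm1 on the other strand over 372 bases, and these libraries do not mark strand.

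In the payoff phase, Pgk1, the kinase of the earlier ATP-yielding step, measured 1176, 1241 and 999 normalized counts in LD-low and 1385, 1345 and 1246 in LD-high. The groups lay apart by the narrow gap between 1241 and 1246, and the log2 change was 0.22 ± 0.09 (95% interval 0.02 to 0.43, adjusted p = 0.207). Gapdh, the dehydrogenase often used as a reference gene, measured 12366, 11658 and 11504 in LD-low and 14283, 12923 and 11627 in LD-high. LD-high replicate 3 lay inside the LD-low range, and the log2 change was 0.12 ± 0.08 (95% interval -0.04 to 0.29, adjusted p = 0.389). Pkm, pyruvate kinase M, measured 10999, 11433 and 9773 against 12515, 11197 and 11606, with a log2 change of 0.13 ± 0.07 (95% interval -0.02 to 0.29, adjusted p = 0.331). Pgam1, the mutase, had the lone value below 0 among these enzymes, at -0.03 ± 0.09 (adjusted p = 0.908), and Bpgm, which makes 2,3-bisphosphoglycerate, was at 0.12 ± 0.14 (adjusted p = 0.686).

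Eno1, the ubiquitous enolase, was the gene of the list that was in the table without being tested. It measured 0.70, 3.25 and 1.86 normalized counts in LD-low and 6.70, 5.60 and 1.67 in LD-high, from which no fold is given. The transcript has 3 other loci at up to 99.48% identity over 85.6% of its length, and the level listed for Eno1 is therefore uncertain as a measure of this enzyme. The copy Eno1b, named after its values were seen, measured 47.0, 37.9 and 36.2 in LD-low and 52.9, 85.1 and 65.1 in LD-high. These lay apart, with a log2 change of 0.71 ± 0.29 (adjusted p = 0.193). Gapdh has 85 other loci at up to 99.84% identity, Pgam1 3 at up to 99.88%, Pgk1 2 at up to 99.94%, and Pkm, Tpi1 and Gpi1 have 1 each, so their levels too depend on how shared reads were counted.

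**Figure D3:**
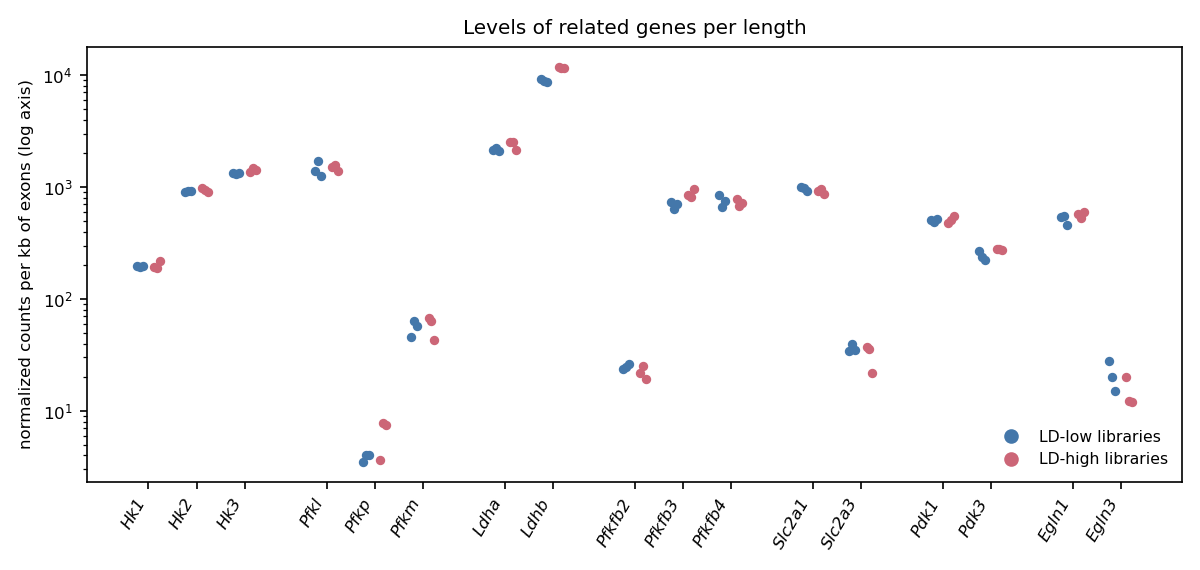
Normalized counts per kilobase of exon for the isoenzyme families on a log axis, with a point for each library, LD-low in blue and LD-high in red. Ldhb, Hk3, Pfkl, Slc2a1, Pdk1 and Egln1 stand above their relatives in both groups, and Pfkfb3 and Pfkfb4 lie close together.

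The 3 transporters of the list had log2 changes below 0, and none was called. Slc2a1, the basal glucose transporter GLUT1, measured 2851, 2781 and 2646 normalized counts in LD-low and 2611, 2764 and 2453 in LD-high. The groups overlapped and the log2 change was -0.08 ± 0.07 (95% interval -0.24 to 0.07, adjusted p = 0.568). Slc2a3, the high-affinity transporter GLUT3, measured 251, 287 and 255 against 269, 261 and 159. Only LD-high replicate 3 was below the LD-low range, and without it the change was 0.01 in place of -0.24 (adjusted p = 0.516). Slc16a3, the lactate exporter MCT4 and a HIF target, measured 1852, 1983 and 1639 against 1668, 1515 and 1713, with a log2 change of -0.16 ± 0.09 (95% interval -0.35 to 0.03, adjusted p = 0.335). Its exons overlap those of Csnk1d on the other strand over 831 bases. Per kilobase of exon, Slc2a1 made up 96.4% ± 0.28 of the Slc2a1 and Slc2a3 level in LD-low and 96.7% ± 0.74 in LD-high.

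Hif1a (ENSMUSG00000021109.7, chr12:75002362-75048517, plus strand), the oxygen-labile subunit, measured 5601, 5344 and 5437 normalized counts in LD-low and 6977, 5744 and 6814 in LD-high. All LD-high libraries lay above the LD-low ones, with LD-high replicate 2 close to the LD-low range. The means were 5460 ± 130 and 6512 ± 670 (SD, n = 3 each) and the log2 change 0.25 ± 0.08 (95% interval 0.08 to 0.41), which did not pass (limma adjusted p = 0.0891). It passed with DESeq2 (adjusted p = 0.0404) and without LD-high replicate 2 (log2 change 0.34, adjusted p = 0.0404). Exons of Hif1a overlap Gm15283 on the other strand over 330 bases. Arnt, its partner, measured 2551, 2390 and 2334 against 2692, 2724 and 2623, apart between the groups, with a log2 change of 0.14 ± 0.07 (95% interval -0.01 to 0.29, adjusted p = 0.27).

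Of the oxygen sensors, Egln1, the prolyl hydroxylase PHD2, measured 1889, 1955 and 1598 normalized counts in LD-low and 2015, 1842 and 2119 in LD-high. The groups overlapped, with a log2 change of 0.14 ± 0.09 (adjusted p = 0.414). Egln3, the hydroxylase PHD3 and itself a HIF target, measured 73.7, 53.0 and 39.9 against 53.6, 32.5 and 31.7. Its log2 change of -0.49 ± 0.34 had an interval from -1.21 to 0.23 (adjusted p = 0.447). Egln1 made up 96.2% ± 0.92 of the Egln1 and Egln3 level per kilobase in LD-low and 97.5% ± 0.76 in LD-high.

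The further HIF targets of the list held 0 called genes among 4 tested. Vegfa, the angiogenic growth factor, measured 51.9, 141 and 38.1 normalized counts in LD-low and 27.6, 103 and 41.7 in LD-high. Replicate 2 was the highest library in both groups, and the log2 change of -0.40 ± 0.48 had an interval from -1.43 to 0.63 (adjusted p = 0.694). Pdk1, a kinase that shuts pyruvate out of the mitochondrial dehydrogenase, measured 3963, 3814 and 4066 against 3722, 3940 and 4268, with a log2 change of 0.01 ± 0.07 (95% interval -0.14 to 0.16). Pdk3, a kinase of the same enzyme, measured 687, 612 and 569 against 709, 721 and 696, apart between the groups, with a log2 change of 0.19 ± 0.10 (adjusted p = 0.32). Ero1l, an oxidase of protein folding, overlapped at -0.08 ± 0.11 (adjusted p = 0.759). Its transcript has 1 other locus at 99.66% identity over 55.4% of its length, so its level is uncertain. Pdk1 made up 67.6% ± 2.35 of the Pdk1 and Pdk3 level per kilobase in LD-low and 64.8% ± 1.83 in LD-high.

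Across libraries, the 30 genes did not share an order. LD-high replicate 1 was the highest library for 11 of the 30, LD-high replicate 2 for 6 and LD-high replicate 3 for 4, and LD-low replicate 3 was the lowest for 13. Summed, the 31 genes in the table, with the untested Eno1, took 0.407% to 0.426% of all normalized counts in LD-low and 0.443% to 0.450% in LD-high. Without Ldhb their sums were 95502, 95983 and 89585 normalized counts in LD-low and 105136, 100238 and 99318 in LD-high. These sums were apart as well, and are dominated by Gapdh, Pkm, Aldoa and the other genes at the top of the scale.

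**Figure D4:**
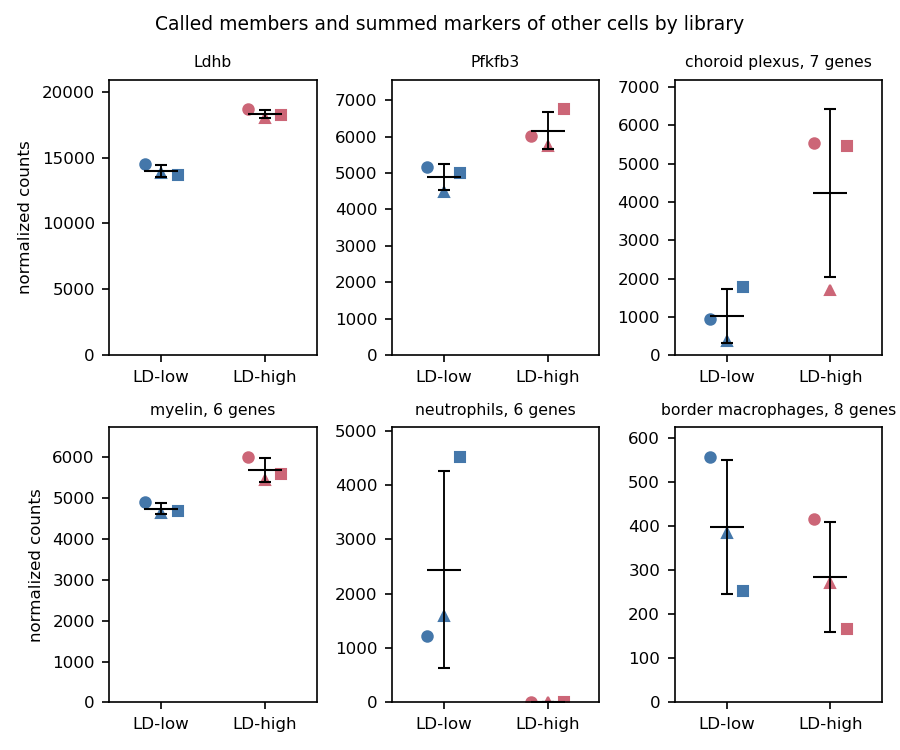
Normalized counts of Ldhb and Pfkfb3 beside the summed markers of choroid plexus, myelin, neutrophils and border-associated macrophages in each library, with circle, triangle and square for replicates 1, 2 and 3 and lines for mean and SD. Neutrophil sums reach 4523 in LD-low and are 0 in LD-high, and choroid plexus sums of LD-high replicate 2 and LD-low replicate 3 are 1697 and 1776.

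Beyond the 32 genes, 91 genes of the same pathways were listed, of which 81 were in the table and 74 tested. Of the 74, 2 were higher, Bnip3 and Bnip3l, and 3 were lower, Slc2a6, Bhlhe40 and Wsb1, shares to be read beside the 1.53% and 1.82% of all genes tested. Their median log2 change was 0.08.

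Among the other hypoxia targets, 2 of 25 tested were higher and 2 lower. Bnip3, a receptor of mitophagy, measured 1297, 1349 and 1142 normalized counts in LD-low and 1561, 1825 and 1680 in LD-high, and its relative Bnip3l, known as NIX, 4301, 4203 and 3910 against 5143, 5076 and 4799. Both lay apart between the groups, with log2 changes of 0.42 ± 0.09 (adjusted p = 0.025) and 0.28 ± 0.07 (adjusted p = 0.0399). The Bnip3 call was lost without LD-low replicate 2 (0.47, adjusted p = 0.0517), LD-low replicate 3 (0.35, 0.119), LD-high replicate 2 (0.36, 0.0786) or LD-high replicate 3 (0.42, 0.0735). In all, it held in 12 of 17 alternative fits, with adjusted p of up to 0.191. The Bnip3l call was kept without LD-low replicate 1 (adjusted p = 0.0385) and lost without LD-low replicate 2 (0.116), LD-low replicate 3 (0.158), LD-high replicate 1 (0.0994), LD-high replicate 2 (0.102) or LD-high replicate 3 (0.0747). With equal totals and with quantile normalization it was lost too (adjusted p = 0.0569 and 0.0639). In all, the Bnip3l call held in 9 of 17 alternative fits, with adjusted p of up to 0.201. Bnip3 has 3 near-identical loci and Bnip3l 1.

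Wsb1, a substrate receptor of a ubiquitin ligase, measured 12390, 12687 and 13982 normalized counts in LD-low and 9599, 10686 and 10547 in LD-high. Bhlhe40, a transcriptional repressor also known as DEC1, measured 104, 82.3 and 85.5 against 51.4, 39.2 and 30.1. In both, every LD-high library was below every LD-low library, with log2 changes of -0.34 ± 0.07 (adjusted p = 0.0233) and -1.18 ± 0.28 (adjusted p = 0.0359). The Wsb1 call was lost without LD-low replicate 2 (adjusted p = 0.0758), LD-low replicate 3 (0.105), LD-high replicate 1 (0.0614) or LD-high replicate 3 (0.0667). In all, it held in 12 of 17 alternative fits, with adjusted p of up to 0.193. The Bhlhe40 call was kept without LD-high replicate 1 (0.0341) and lost without LD-low replicate 1 (0.0967), LD-low replicate 2 (0.105), LD-low replicate 3 (0.123), LD-high replicate 2 (0.0709) or LD-high replicate 3 (0.102), and with quantile normalization (log2 change -1.01, adjusted p = 0.0787). In all, it held in 10 of 17 alternative fits, with adjusted p of up to 0.149. Kdm3a, a histone demethylase induced by HIF, overlapped at 0.10 ± 0.07 (adjusted p = 0.477). Ddit4, an inhibitor of mTORC1, measured 258, 307 and 159 against 258, 260 and 139, with replicate 3 the lowest in both groups and a log2 change of -0.15 ± 0.26.

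Among the other isoforms and transporters, 0 of 17 tested were higher and 1 was lower. Slc2a6, a hexose transporter of lysosomes in macrophages, measured 231, 162 and 162 normalized counts in LD-low and 104, 94.1 and 104 in LD-high. The groups lay apart, with a log2 change of -0.86 ± 0.20 (adjusted p = 0.0313), but the call was lost in 6 of 6 fits that left out 1 library, with adjusted p from 0.0547 to 0.0983, and with quantile normalization (log2 change -0.73, adjusted p = 0.0734). In all, the call held in 9 of 17 alternative fits, with adjusted p of up to 0.161. Slc2a5, known as the fructose transporter GLUT5 and as a microglial marker in the brain, was the most abundant hexose transporter of these lists. Per kilobase of exon it stood at 13112 in LD-low and 12484 in LD-high, where Slc2a1 stood at 967 and 915. It did not change by the test (log2 change -0.07 ± 0.07, 95% interval -0.22 to 0.09, adjusted p = 0.648). Slc16a1, the monocarboxylate transporter MCT1, measured 1128, 942 and 838 against 1147, 1130 and 1154 normalized counts, apart between the groups, with a log2 change of 0.25 ± 0.10 (adjusted p = 0.198). Aldoc, the aldolase of astrocytes, lay between 17.3 and 39.2 normalized counts in all libraries, with a log2 change of 0.40 ± 0.41 (adjusted p = 0.632).

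The genes of pyruvate entry into mitochondria held 0 called of 12 tested, with log2 changes above 0 for 12 of 12 and a median of 0.12. With equal totals 11 of 12 were above 0, beside 39.8% of all genes. DESeq2 called 1 higher and edgeR 0, and 1 passed an unadjusted p of 0.05. This was Mpc1, a subunit of the mitochondrial pyruvate carrier, which measured 422, 407 and 369 normalized counts in LD-low and 536, 530 and 534 in LD-high. The groups lay apart and the LD-high libraries differed little, with a log2 change of 0.42 ± 0.11 (95% interval 0.18 to 0.65) and an adjusted p of 0.053. It passed with DESeq2 (adjusted p = 0.025) and under a filter of 50 normalized counts (0.049).

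The pentose phosphate branch held 0 called of 8 tested, with 2 higher at an unadjusted p of 0.05, 1 higher by DESeq2 and 0 by edgeR. Rpe, the ribulose phosphate epimerase, measured 724, 690 and 617 normalized counts in LD-low and 873, 879 and 857 in LD-high. The groups lay apart, and the log2 change of 0.36 ± 0.10 (95% interval 0.16 to 0.57) had an adjusted p of 0.0525. It passed with DESeq2 (adjusted p = 0.0226) and under the filter of 50 (0.0483). Exons of Rpe overlap those of 1110028C15Rik on the other strand over 563 bases.

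The other components of the HIF pathway held 0 called of 12 tested. At an unadjusted p of 0.05, 1 was higher and 1 lower, DESeq2 called 0 higher and 1 lower, and edgeR 0. Cited2, which competes with HIF for its coactivator, measured 1356, 1416 and 1226 normalized counts in LD-low and 1083, 1132 and 1017 in LD-high. Every LD-high library was below every LD-low library, with a log2 change of -0.31 ± 0.09 (limma adjusted p = 0.0701, DESeq2 adjusted p = 0.0343). Vhl, the recognition subunit of the ligase that destroys the alpha subunits, measured 4807, 4281 and 4106 against 5244, 4943 and 4905, apart in the other direction, with a log2 change of 0.20 ± 0.07 (adjusted p = 0.154). Egln2, the hydroxylase PHD1, and Hif1an, the asparaginyl hydroxylase FIH, had log2 changes of 0.07 ± 0.07 and 0.01 ± 0.09. Epas1, the HIF-2 alpha subunit, measured 2.81, 0 and 0 against 5.21, 0 and 11.7, near the floor of 3 reads, which is 2.11 to 5.01 normalized counts depending on depth, and was not tested.

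**Figure D5:**
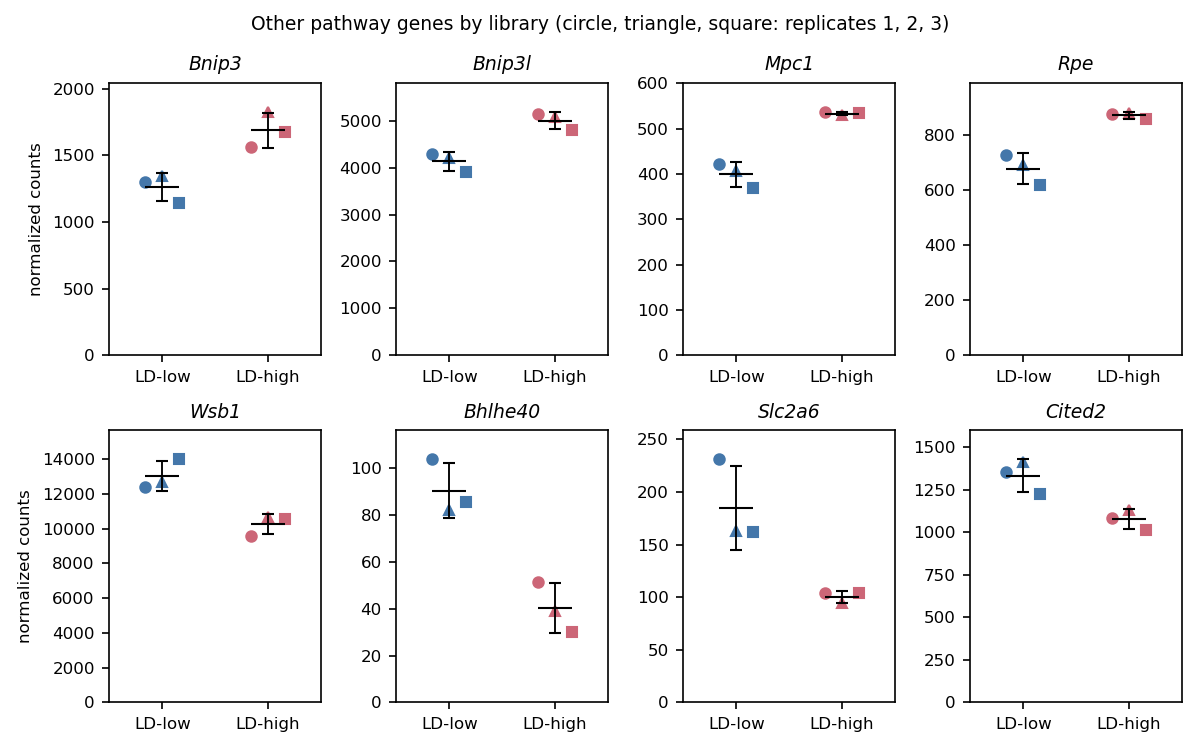
Normalized counts in each library for 8 other genes of the same pathways, with circle, triangle and square for replicates 1, 2 and 3 and lines for mean and SD. Bnip3, Bnip3l, Mpc1 and Rpe lie higher in every LD-high library, and Wsb1, Bhlhe40, Slc2a6 and Cited2 lower, with Mpc1, Rpe and Cited2 not past the threshold.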

How the data were processed

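RNA of 3 LD-low and 3 LD-high libraries was made with a low-input SmartSeq kit and Nextera XT, which does not mark strand, per the labels' protocols. FastQC 0.11.4 was run on the reads, STAR 2.5.1b aligned them to mm9 and counted them per gene, and DESeq2 was used, per the submitters' processing notes and the design text. Which annotation or gene filter was used is not stated there. Values deposited by the authors are a signal, read counts divided by a size factor per library (0.599 to 1.43). In it, 100% of values came out as whole reads within 0.01 reads, and 22 rows carry a date in place of a symbol. They were kept and are not named.

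Groups were compared with limma 3.58.1 in R 4.3.3, with a variance trend, on log2(normalized count + 1), which understates the change of low genes. Tests were 2-sided, with Benjamini-Hochberg adjustment over all 11624 genes with at least 10 in at least 3 libraries, at a threshold of 0.05, and were tested on simulated data. Alternatives were pseudocounts of 0.5 and 5, a filter of 50 or none, TMM, quantiles, equal totals, no trend, a replicate block, each library left out, and edgeR 4.0.16 (377 genes called) and DESeq2 1.42.0 on the recovered reads. Coordinates and exon lengths are from GENCODE vM1 on NCBIM37, with Pkm listed there as Pkm2, and matched 12949 symbols. Copies were sought with minimap2 2.31 (95% identity over 50% of the transcript). Promoters are from RefSeq on GRCm38.p6, matched for 31 of 32 genes (not Slc2a3), with Ero1l found by its synonym. Reads carry no molecular identifiers, so floors cover counting error only.

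The genes and lists were chosen with earlier results of these data known. All 32 genes are named. Of the other lists, the genes past the threshold, the gene with the smallest p of each list and 11 genes always given, Bnip3 and Bnip3l among them, are named, and Eno1b was added after its values were seen.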

Additional observations from a re-analysis of the deposited data

How the results depend on the processing

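The call of Ldhb, and that 0 of the listed genes were lower, held under the other pseudocounts, filters, scalings and count tests, and Ldhb did not pass without the variance trend. The number of listed genes called higher was 2, and became 1 with quantile normalization, 0 without the variance trend and 4 with the replicate number as a block, and ran from 1 to 3 with 1 library left out. The number of all genes called was 390 and became 252 with quantiles, 15 without the trend and 729 with DESeq2, and ran from 52 to 421 with 1 library left out, being 52 without LD-low replicate 3. With equal totals 118 genes were higher and 233 lower, against 178 and 212. With the replicate block 1090 genes were called, and Aldoa (adjusted p = 0.0361) and Hif1a (0.0156) passed beside Ldhb and Pfkfb3. Of the other pathway genes named, Cited2 (0.0203), Rpe (0.0203), Mpc1 (0.0256) and Vhl (0.0406) also passed with the block and not without it. Deviations of same-numbered libraries correlated at 0.16, 0.13 and 0.06, and each library correlated best with its own number, but nothing in the labels pairs them and the last value is low. For single genes, 780 values under alternatives were computed for 46 genes, of which 701 kept direction and side of the threshold, 26 changed sign where neither value was called, 13 passed where the reported value had not, and 40 no longer passed. The cause of these changes was not tested. At these depths genes under about 100 normalized counts, such as Vegfa, Egln3 and Pfkp, had intervals wider than 1 log2 unit.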
